A study of Mus musculus with 3 samples.

Results

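The genes described here encode the subunits of the proteasome with its assembly chaperones and activators, measured in whole mouse lung. They were taken by name, as genes whose single symbol in the array's annotation begins with Psma, Psmb, Psmc, Psmd or Psme and a number. This family and the gene lists set beside it were picked with earlier results of these data known. The pattern took 42 of the 8251 named genes, of which 40 are proteasome genes and 2, Psmc3ip and Psme3ip1, encode proteins named for binding a proteasome component. The counts and medians below cover the 40 genes. Psme2 is not among them, because 2 probe sets of the array carry its symbol together with that of a second gene, and they are not used here.

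The study placed tumour cells under the skin of the back of mice as a model of lungs that tumour cells have not yet reached. RNA was measured on 3 Affymetrix arrays: 1 of lung from the mouse or mice with a B16 tumour (a mouse melanoma line), here the B16 lung, 1 from those with an LLC tumour (Lewis lung carcinoma, also a mouse line), the LLC lung, and 1 of normal lung, the control lung. The strain, age and sex of the mice, the time after injection and the number of animals behind each sample are not given in the labels. With 1 array per group no difference has a replicate check, no p-value is given, and every statement describes these 3 RNA samples.

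The proteasome is the protease that degrades proteins marked with ubiquitin. Its core particle is a barrel of 2 outer rings of alpha subunits and 2 inner rings of beta subunits, and the proteolytic sites lie on 3 kinds of beta subunit, encoded by Psmb5, Psmb6 and Psmb7. The regulatory particle caps the barrel, binds and removes ubiquitin and unfolds the substrate with a ring of 6 ATPases. In leukocytes, and in other cells exposed to interferon gamma, Psmb8, Psmb9 and Psmb10 take the places of Psmb5, Psmb6 and Psmb7 in newly built particles. This immunoproteasome is known for producing peptides that fit MHC class I molecules.

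The values are signals after scaling of each array by 1 factor. A signal below the floor of 23.6, the 40th percentile of all values, was set to the floor before log2 differences were taken. For a comparison of 2 arrays, a gene counted as measured when either signal exceeded the floor, and a fold was counted from 1.5-fold upwards. Of the 40 genes, 38 were above the floor on all arrays. Psmd2 was below it in the LLC lung, and Psmd10 was above it in the LLC lung alone. For 7 genes (Psma3, Psmb4, Psmb5, Psmb7, Psmc3, Psmd9 and Psmd12) the brightest probe set has a suffix in its name that marks probes shared with other transcripts or chosen under relaxed rules. The name of a probe set without such a suffix is called plain. The members' median signals were 209, 231 and 235 in the B16, LLC and control lung. Sftpc, the surfactant protein C gene that marks alveolar type 2 cells, had signals of 7482, 7298 and 6206, high on each array. The markers of T lymphocytes on the array, 4 genes, were below the floor in all lungs. The hepatocyte markers Alb, Apoa1, Serpina1b and Fgb were higher in the LLC lung, with a summed signal of 2256 for the list of 5 against 162 in the B16 and 120 in the control lung. Of the 2256, 1327 came from Alb. The remaining marker, Ttr, was below the floor in all lungs. The part of the hepatocyte markers in the differences of the proteasome genes was not tested. In whole lung, fewer cells of a type and less RNA per cell cannot be told apart.

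The immunoproteasome subunits are described first, with the sequence upstream of those that lie side by side in the MHC region. Psmb9 and Tap1, which encodes a subunit of the peptide transporter of the MHC class I pathway, are transcribed away from each other, and the sequence between their start sites serves both. The stretch is shown because both genes were measured. It was read from the RefSeq promoter table (build GRCm38.p6) at chr17:34187331-34187555, plus strand, 225 bases. The 250 bases before the start of Psmb8, at chr17:34197945-34198194, plus strand, are shown for comparison. Capitals mark matches to the motifs named after them.
Psmb9_Tap1: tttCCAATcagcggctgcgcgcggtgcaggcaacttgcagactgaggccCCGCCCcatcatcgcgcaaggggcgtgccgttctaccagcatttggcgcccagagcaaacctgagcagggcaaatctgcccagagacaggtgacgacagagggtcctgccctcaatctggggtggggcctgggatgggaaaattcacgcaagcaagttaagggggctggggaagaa
Psmb8: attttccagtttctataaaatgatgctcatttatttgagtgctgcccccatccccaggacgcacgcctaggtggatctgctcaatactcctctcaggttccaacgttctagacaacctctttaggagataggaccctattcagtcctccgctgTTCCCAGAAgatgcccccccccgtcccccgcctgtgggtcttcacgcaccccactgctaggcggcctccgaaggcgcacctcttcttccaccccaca

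Of 5 motifs searched on both strands, the stretch between Psmb9 and Tap1 holds a CCAAT box (CCAAT) and a GC box (GGGCGG, here as its reverse complement), and the stretch before Psmb8 holds a gamma-activated site (TTCNNNGAA). The interferon regulatory factor site (GAAANNGAA) and the antioxidant response element core (TGACNNNGC) have no match in either. The table holds windows of 300 bases, 250 before and 50 after a start, for 34 of the 40 genes. CCAAT was in 36.1% of the 36 windows of these genes and in 37.4% of all 32851 windows, GGGCGG in 58.3% and 35.7%, TTCNNNGAA in 5.56% and 8.3%, GAAANNGAA in 16.7% and 8.56%, and TGACNNNGC in 16.7% and 12.4%. The GAAANNGAA matches lie in the windows of Psmb3, Psmb4, Psmc2, Psmd4, Psmd9 and Psme1, and not in that of Psmb8, Psmb9 or Psmb10. A match or its absence describes the letters of these windows only.

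All 3 immunoproteasome subunits had their highest signal in the LLC lung. That lung was highest for 13 of the 38 proteasome genes above the floor on all arrays (34.2%) and for 30.6% of all 5136 such genes. Psmb10, which takes the place of Psmb7, had signals of 142 in the B16 lung, 324 in the LLC lung and 163 in the control lung. The LLC lung was 1.99-fold above the control lung (log2 difference 0.995) and 2.28-fold above the B16 lung, while the B16 lung lay below the control lung by a log2 difference of −0.20. Its difference from the control lung was the largest increase measured on both arrays among the 40 genes, and it lay past 1.5-fold under each of the 8 alternatives tried on single genes.

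Psmb8, which takes the place of Psmb5, had signals of 371 in the B16, 508 in the LLC and 384.5 in the control lung. It was 1.32-fold higher in the LLC than in the control lung (0.40), and the B16 and control lungs were alike to within 1.04-fold. Psmb9, which takes the place of Psmb6, had signals of 163, 203 and 166 in the same order. The LLC lung was 1.23-fold above the control lung (0.29) and the B16 lung 1.02-fold below it. For scale, the robust SD of the log2 difference between the LLC and control lung over all genes was 0.331 at mean signals of 100 to 200, 0.266 at 200 to 400 and 0.247 at 400 to 800. That spread holds real differences as well as array noise. The difference of Psmb9 was below the value for its range of signal, and those of Psmb8, in the brightest range, and of Psmb10 were above theirs.

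**Figure D1:**
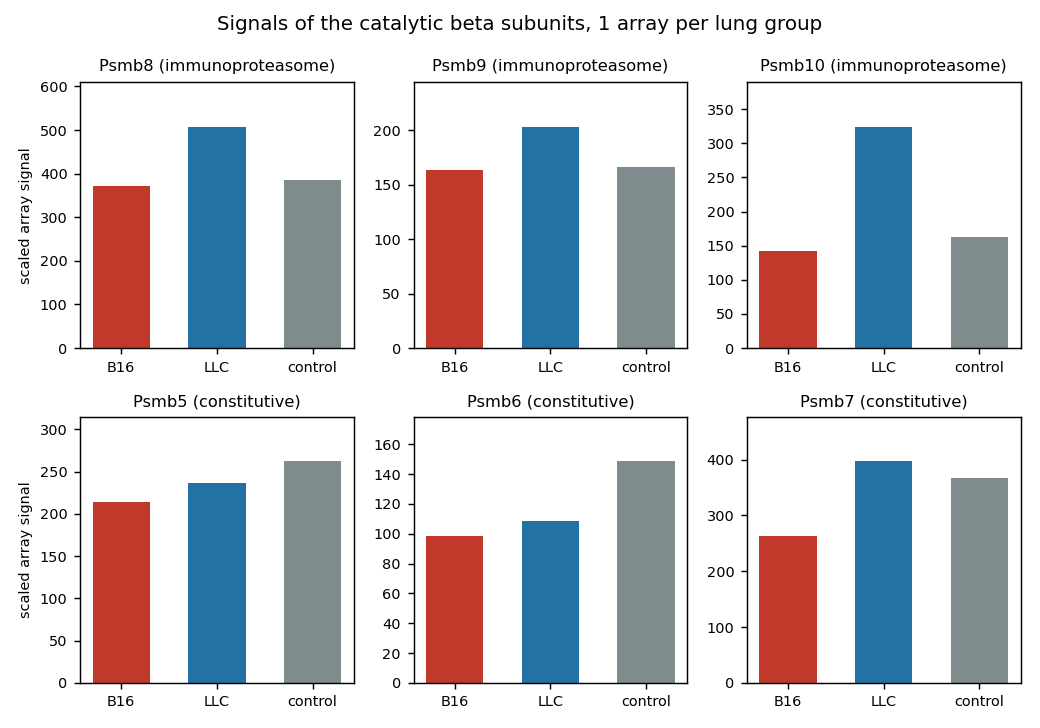
Scaled array signal (vertical axes, from 0, with a scale of its own for each gene) of the 3 immunoproteasome subunits (upper row) and of the constitutive subunits they replace (lower row) in the B16, LLC and control lung; each bar is 1 array, so there are no error bars. Psmb8, Psmb9 and Psmb10 are highest in the LLC lung, while Psmb5 and Psmb6 are highest in the control lung.

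Of the constitutive catalytic subunits, Psmb7 had the order of the immunoproteasome subunits and Psmb5 and Psmb6 were highest in the control lung. Psmb5, the subunit with chymotrypsin-like activity, had signals of 214, 236 and 262 in the B16, LLC and control lung. Psmb6, with caspase-like activity, had 98.7, 108 and 148.5. Psmb7, with trypsin-like activity, had 263, 397 and 367. All 3 were lowest in the B16 lung, at 1.23-fold, 1.504-fold and 1.39-fold below the control lung, and only Psmb7 was higher in the LLC than in the control lung, by 1.08-fold.

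Set against its constitutive counterpart, each immunoproteasome subunit was displaced upwards from the control lung in the LLC lung, and in the B16 lung so were Psmb9 and Psmb10, while the sign for Psmb8 depended on the probe set of Psmb5. In the LLC lung the log2 difference from control of Psmb10 exceeded that of Psmb7 by 0.88, that of Psmb9 exceeded that of Psmb6 by 0.75, and that of Psmb8 exceeded that of Psmb5 by 0.55. In the B16 lung the 3 values were 0.28, 0.56 and 0.24, with the constitutive subunits below the control lung and the immunoproteasome subunits near it. Both sets of values use the same control array, so their shared sign is not support for either. For scale, the robust SD of the log2 difference of single genes from control was 0.445 in the B16 lung and 0.361 in the LLC lung. In the B16 lung the values of Psmb10 and Psmb8 were below it. Psmb5 has a second probe set, with signals of 152, 131 and 130.4, which read 0.22 above the control lung in the B16 lung where the brightest read 0.29 below it. With the probe set of Psmb5 that has a plain name, the Psmb8 value in the B16 lung was −0.27, and with the mean of all probe sets of a gene it was −0.014.

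The genes that work with the immunoproteasome in MHC class I presentation were also a little higher in the LLC lung. Of the 8 measured genes of peptide loading, 8 were above the control lung, by a median of 0.30, and none by 1.5-fold; over all genes 49.9% were above it and the median was −0.00047. In the B16 lung 6 of 8 were above control, with a median of 0.16. Tap1, whose promoter sequence is shown with that of Psmb9, had signals of 301, 312 and 245 in the B16, LLC and control lung. It was thus higher in both tumour-bearing lungs, whereas Psmb9 was higher in the LLC lung only. The Tap1 difference in the B16 lung, 0.30, was below the robust SD over all genes at signals of 200 to 400, 0.342. In the LLC lung Tap1 was 0.35 above control, more than the 0.266 for that range, and Psmb9 was below the value for its range. B2m, the light chain of MHC class I, had 2346, 2869 and 2321, and H2-K1 and H2-D1, its heavy chains, were higher in the LLC lung than in the control lung by 0.33 and 0.30 on the log2 scale. Tapbp, which encodes the loading factor tapasin, was highest in the B16 lung, with 591, 507 and 401.5. Tap2 had 75.2, 69.6 and 69.1.

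The interferon gamma list holds response genes and also the receptor and kinase genes Ifngr1, Ifngr2, Jak1 and Jak2. Of the list, 5 of 13 measured were at least 1.5-fold higher in the LLC lung than in the control lung and 0 lower. In the B16 lung 3 of 12 were higher and 1 lower. Ifngr1 is among the higher genes in both lungs. Over all genes, 9.32% were at least 1.5-fold higher and 9.07% lower in the LLC lung, and 9.42% and 13.7% in the B16 lung. The GTPase genes Igtp and Iigp1 were higher in both lungs to a like degree, with 190 and 190 against 86.6 for Igtp and 263 and 242 against 111 for Iigp1. Irf8, a transcription factor of myeloid cells, had 161, 310 and 187 in the B16, LLC and control lung, the same order as Psmb10. Irf1, which drives immunoproteasome genes in response to interferon, had 734, 646 and 548. The receptor chain gene Ifngr1 had 80.7 and 149.9, with the control lung below the floor, so that the B16 lung was at least 3.42-fold and the LLC lung at least 6.35-fold higher, and Cxcl9, a chemokine, was above the floor in the LLC lung alone, at 45.2. Socs1, a feedback inhibitor, was 1.65-fold lower in the B16 lung.

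Markers of leukocytes differed between the tumour-bearing lungs in the same direction as the immunoproteasome subunits. Of 5 leukocyte markers, all 5 were lower in the B16 than in the LLC lung, 4 of them by at least 1.5-fold, with a median of −1.60. Over all genes 52.3% were lower, 12.8% by at least 1.5-fold. The summed signals of the 5 markers were 1082, 2404 and 1477 in the B16, LLC and control lung, and none was below the floor. Ptprc, the gene of the leukocyte surface phosphatase CD45, had 24.98, 245 and 137, Cd52 had 206, 707 and 409, Cd53 had 83.2, 252 and 138 and Coro1a had 109.6, 321 and 201. Against control, all 4 were at least 1.59-fold higher in the LLC lung, and in the B16 lung the same 4 were lower by 1.66-fold or more. The remaining marker and the brightest, Laptm5, had 658, 880 and 592. It was 1.11-fold above control in the B16 lung and 1.49-fold in the LLC lung. The macrophage markers had summed signals of 2473, 3596 and 3159 and the neutrophil markers 2228, 3684 and 867, while the B lymphocyte markers were lower in both tumour-bearing lungs, at 315 and 356 against 585. The part of the leukocyte markers in the differences of Psmb8, Psmb9 and Psmb10 was not tested.

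In the direct comparison, which uses the control array only for scaling, the floor and the choice of probe set, the immunoproteasome subunits were lower in the B16 than in the LLC lung by 1.19 (Psmb10), 0.45 (Psmb8) and 0.32 (Psmb9) on the log2 scale. The median was −0.45, against −0.15 for the 3 constitutive catalytic subunits and −0.18 for the 34 proteasome genes that are no catalytic beta subunit. Over all genes it was −0.02. Relative to Psmb7, Psmb10 was lower by 0.60, and for the other pairs the values were −0.31 (Psmb8 with Psmb5) and −0.18 (Psmb9 with Psmb6). The value for Psmb8 was −0.49 with the mean of all probe sets and −0.66 with plain names.

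**Figure D2:**
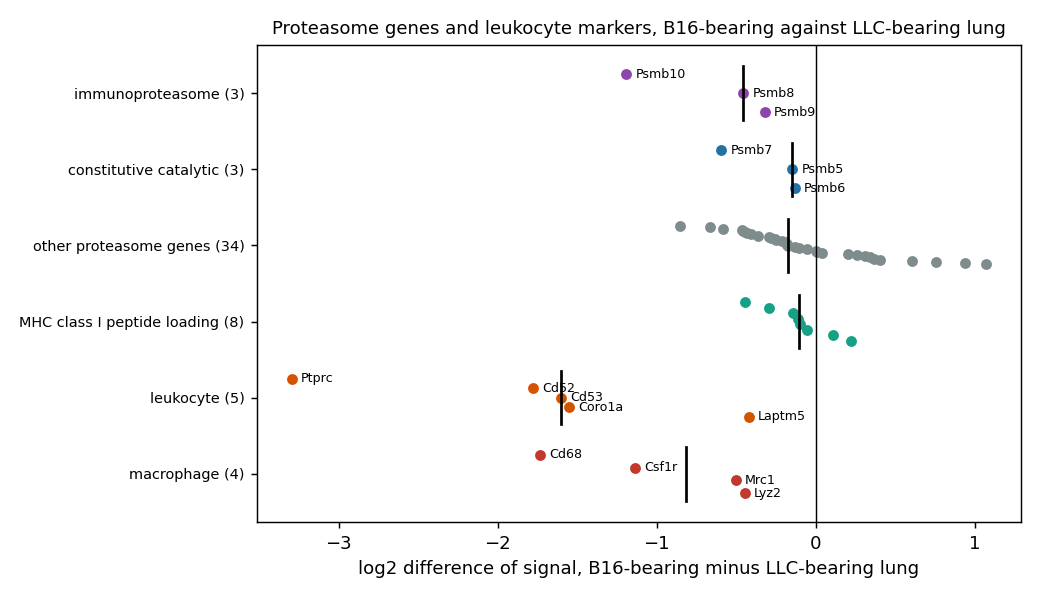
Log2 difference of signal between the B16 and LLC lung (horizontal axis) for proteasome genes in 3 groups, for MHC class I peptide loading genes and for leukocyte and macrophage markers; each point is 1 gene, the bar is the median, and the number in brackets is that of measured genes. All 3 immunoproteasome subunits, all 3 constitutive catalytic subunits and all measured leukocyte and macrophage markers lie below 0, while the 34 other proteasome genes lie on both sides.

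The 7 alpha ring genes, which form the gate of the barrel, stayed within 1.5-fold in all 3 comparisons. Psma2 had signals of 489, 535 and 631 in the B16, LLC and control lung, Psma3 had 528, 596 and 665, and Psma1 had 104, 121 and 134. These 3 had the same order, with the control lung highest. Psma5 read 237, 237 and 234, the steadiest of the ring. Psma4 was 1.05-fold and 1.13-fold above the control lung, and Psma6 and Psma7 lay below it in the B16 and above it in the LLC lung, with 372, 445 and 408.5 for Psma6 and 245, 314 and 278.5 for Psma7.

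Of the 4 beta ring genes without a proteolytic site, Psmb3 had the largest difference. Its signals were 193, 289.8 and 301 in the B16, LLC and control lung, so that the B16 lung alone stood low, 1.56-fold below control. Psmb4 showed the same order of B16 against the others, with 459, 619 and 615. Its second probe set read 63.2 in the B16 lung and was below the floor in the others, the opposite direction. Psmb1 had 555, 659 and 604, and its second probe set, with 349, 393 and 355, gave the same order. Psmb2 was level, with 232, 230.2 and 232.

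The ATPases of the regulatory particle were the group with the lowest median in the LLC lung, −0.40 against −0.00047 over all genes. Of the 6, 5 were below the control lung and 3 by at least 1.5-fold, where 9.07% of all genes were. Psmc5 had signals of 204 in the B16, 97.02 in the LLC and 299.6 in the control lung. It was 3.09-fold below control in the LLC lung (−1.63) and 1.47-fold in the B16 lung (−0.56), and its value in the LLC lung was the largest difference measured on both arrays of any of the 40 genes. The second probe set of Psmc5 was below the floor on all arrays and carries no information on this. Psmc1 had 134, 108 and 175, 1.61-fold below control in the LLC lung.

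Psmc3 had 229.5, 181 and 284 on its brightest probe set, 1.57-fold below control in the LLC lung. A second probe set, with 88.2, 96.1 and 109.7, was below control by 0.19 on the log2 scale, and a further one, with 38.8, 26.8 and 37.6, by 0.49. All 3 gave the LLC lung below control, by unequal amounts. The other ATPases stayed within 1.5-fold of control. Psmc2 was low in the B16 lung, with 166 against 221 and 235, Psmc6 was nearly level, with 590.2, 612 and 684, and Psmc4 was highest in the LLC lung, with 53.9, 65.5 and 51.8.

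The 11 subunits of the regulatory particle without ATPase activity lay on both sides of control in the B16 lung, 6 above and 5 below, and in the LLC lung 8 were below (72.7%, against 50.1% of all genes), none by 1.5-fold. Psmd4, a receptor for ubiquitin chains, had signals of 349 in the B16, 182 in the LLC and 201 in the control lung. The B16 lung stood above both others, 1.74-fold above control (0.80) and 1.92-fold above the LLC lung. Psmd3 and Psmd13, 2 subunits of the lid, were also higher there, with 294 against 215 in the control lung for Psmd3 and 177 against 137 for Psmd13. In the LLC lung they had 246 and 172.

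Psmd14, the subunit that removes ubiquitin chains from substrates, had 152, 207 and 235, and was 1.55-fold below control in the B16 lung. Psmd12, a lid subunit of low signal, had 45.2, 51.2 and 74.0, 1.64-fold and 1.45-fold below control. With the floor at the 60th percentile its difference in the B16 lung was −0.054. Psmd6 and Psmd8, also of the lid, were 1.27-fold and 1.26-fold below control in the B16 lung. The differences of Psmd7, Psmd11 and Psmd1 from control lay within 1.23-fold. Psmd2, a scaffold of the base, had 35.9, a signal below the floor and 34.1, so the LLC lung was at least 1.45-fold below control. Psmd11 has 2 further probe sets: one had 137, 197 and 182, the reverse of the order of the brightest one (306, 237 and 291), and one read 112 and 56.7 with a control signal below the floor.

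Of the assembly chaperones of the regulatory particle, Psmd9 had 315, 273 and 253 and Psmd5 had 156, 214 and 181.5 in the B16, LLC and control lung. Psmd10, which encodes gankyrin, had 42.7 in the LLC lung, at least 1.81-fold above the floor that bounds both other lungs. The activators open the core particle without the regulatory particle. Psme1, a subunit of the interferon-inducible activator PA28, had 324, 371 and 303, the order of the immunoproteasome subunits except that the B16 lung was not below the control lung. Psme3, which forms the nuclear PA28 gamma ring, had 125, 74.0 and 74.8, and was 1.67-fold above control in the B16 lung. Psme4, the nuclear activator PA200, had 64.2, 102 and 117, 1.82-fold below control in the B16 lung and nearer to it in the LLC lung (−0.20). At a floor of 100 the Psme3 and Psme4 differences in the B16 lung were 0.32 and −0.22, since both genes have signals near that value. Of the binding partner genes, Psme3ip1 had 125, 121 and 81.2, and Psmc3ip was below the floor throughout.

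**Figure D3:**
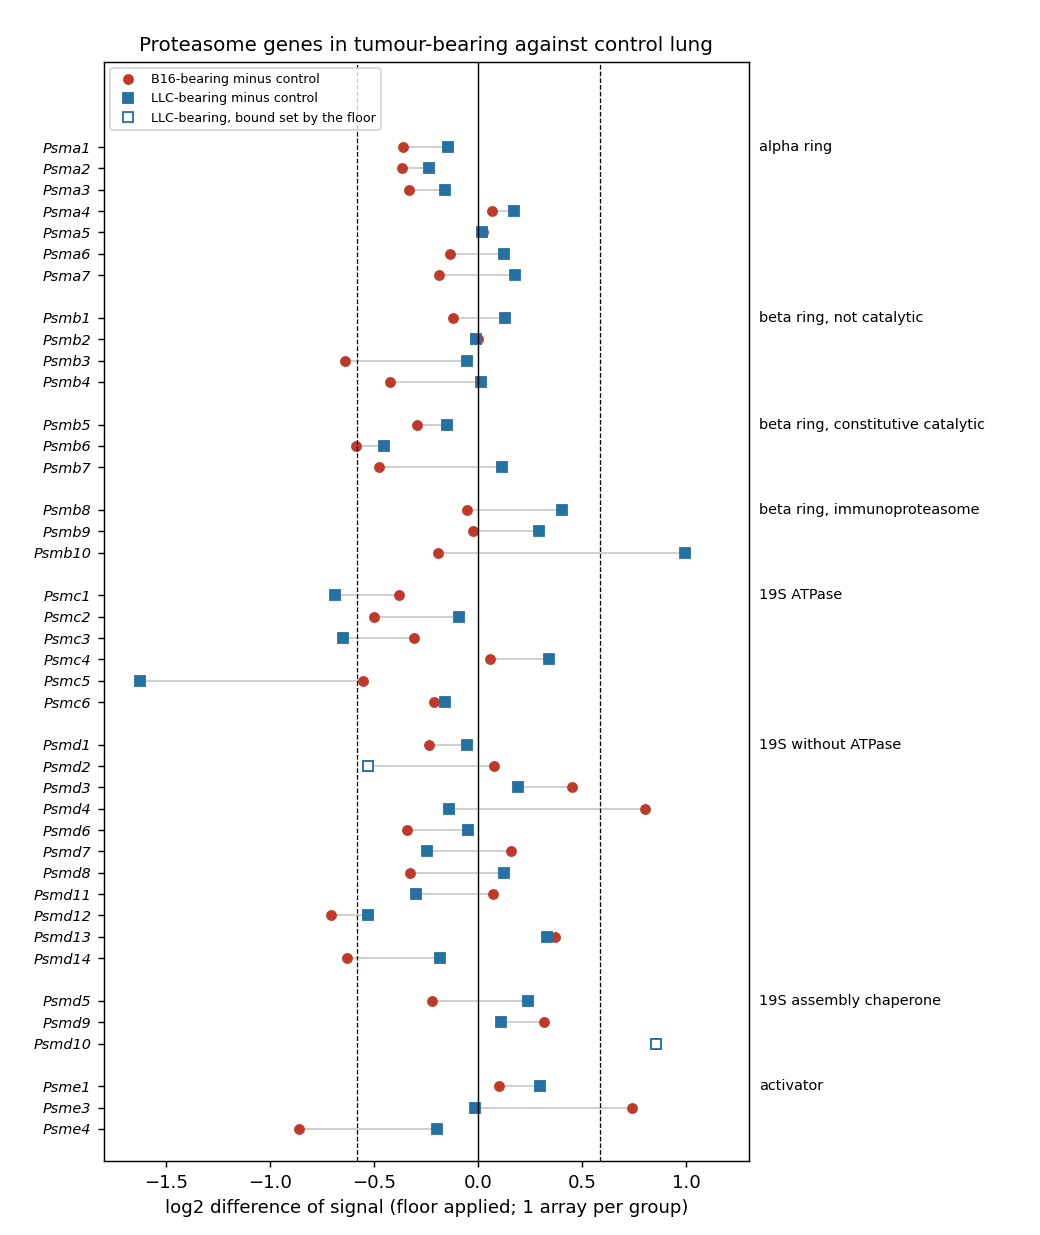
Log2 difference of signal from the control lung (horizontal axis) of the 40 proteasome genes, ordered by their place in the particle, in the B16 (circles) and LLC lung (squares); each point is 1 array against 1 control array, dashed lines mark 1.5-fold, open squares are bounds set by the floor, and Psmd10 has no B16 value. Psmb10 on the right and Psmc5 on the left have the largest differences in the LLC lung, and Psme4, Psmd4 and Psme3 in the B16 lung.

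Over all signals, the shares of proteasome genes past 1.5-fold were near or below those of all genes. In the B16 lung 2 of 39 measured were at least 1.5-fold above the control lung and 5 below, 5.13% and 12.8%, against 9.42% and 13.7% of all 5968 genes measured. In the LLC lung 2 of 40 were above and 3 below, 5.00% and 7.50%, against 9.32% and 9.07% of 6000 genes. Between the tumour-bearing lungs 4 were higher in the B16 lung and 4 lower, as a share 10% each, against 9.14% and 12.8% of 5984 genes. Proteasome genes are mostly of moderate to high signal, where the spread between the arrays was smaller. Among genes with a mean signal of at least 100, 1 of 34 proteasome genes was above and 3 below control in the B16 lung, against 7.08% and 7.97% of all such genes, and 1 above (2.94%) and 3 below (8.82%) in the LLC lung, against 5.78% and 4.77%. The 3 below are the ATPases Psmc1, Psmc3 and Psmc5. Between the tumour-bearing lungs 2 were higher and 2 lower, against 6.09% and 7.23%.

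The middle of the group lay lower in the B16 lung. There 27 of 39 proteasome genes were below the control lung, 69.2% against 50.7% of all genes, with a median of −0.21 against −0.01. Without the immunoproteasome subunits 24 of 36 were below it and the median was −0.23. In the LLC lung 22 of 40 were below the control lung, 55.0% against 50.1%, with a median of −0.03. Against the LLC lung, 27 of 40 were lower in the B16 lung, 67.5% against 52.3%, with a median of −0.18. Of the 38 genes above the floor on all arrays, the B16 lung had the lowest signal for 23 (60.5%), the LLC lung for 8 and the control lung for 7; over all 5136 such genes the B16 lung was lowest for 36.7%. Subunit genes are not independent replicates, and the difference has no test.

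**Figure D4:**
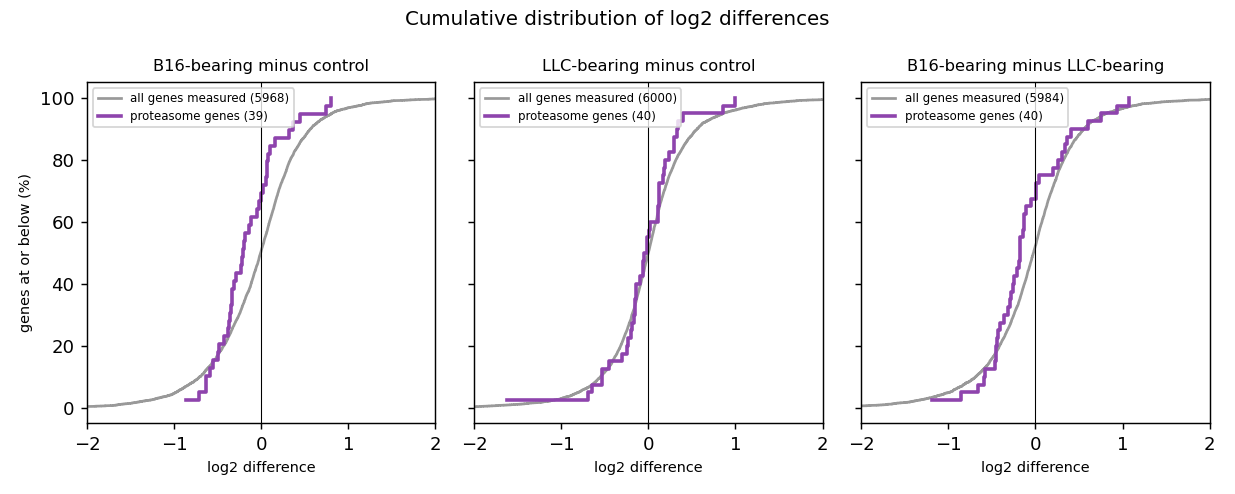
Cumulative share of genes (vertical axis, %) at or below each log2 difference of signal (horizontal axis, cropped at −2 and 2) for all genes measured and for the proteasome genes, in the 3 comparisons of single arrays; the number of genes is in the key. The proteasome genes lie to the left of all genes in the middle of the B16 lung minus control panel, where 69.2% of them are below 0, and near all genes in the LLC lung minus control panel.

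Genes that assemble or serve the proteasome had medians of the same sign in the B16 lung. Of 14 assembly and accessory genes, 9 were below control there, 3 by at least 1.5-fold and 0 above by that much, with a median of −0.14, where 50.7% of all genes were below control, 13.7% by at least 1.5-fold, and 9.42% above by that much. In the LLC lung none of 13 differed by 1.5-fold. The 3 were Ube3a, a ubiquitin ligase, with 36.9, 84.1 and 82.6, Ubqln2, a shuttle for ubiquitinated proteins, with 28.7, 40.8 and 58.5, and Uchl5, a deubiquitinase of the regulatory particle, with a signal below the floor, 43.3 and 46.1. Ecpas, a proteasome-binding scaffold, had 51.4, 83.1 and 73.1. Some of the brighter genes of the list were level or higher. Pomp, the chaperone of core assembly, had 399, 415 and 408, and Sem1, a small subunit of the regulatory particle, had 475, 521 and 474.5. Usp14, a deubiquitinase, had 326, 406 and 285. Rad23b, with 111, 101 and 139, and Txnl1, with 79.6, 90.3 and 92.7, were below control in both tumour-bearing lungs.

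Of 9 measured genes of ubiquitin conjugation and the p97 segregase, 8 were below control in the B16 lung (median −0.25) and 6 in the LLC lung (−0.23), with 1 in each below by at least 1.5-fold. Over all genes 50.7% and 50.1% were below control, 13.7% and 9.07% by at least 1.5-fold. Ube2e1, a ubiquitin-conjugating enzyme, had 68.0, 169 and 138, Ube2d2a, another, had 79.6, 75.3 and 114, and Vcp, which encodes p97, had 696, 586 and 562, the 1 gene of the list above control in the B16 lung. Of 9 measured regulators of proteasome genes, 5 were above control in the B16 lung, 1 of them by 1.5-fold, and 4 in the LLC lung, none by that much. Over all genes 9.42% were at least 1.5-fold above control in the B16 lung and 9.32% in the LLC lung, where 49.9% were above it at all. The regulators included Nfe2l1, the transcription factor that raises subunit genes when proteasome activity is short. It had 581, 434 and 427.5, 1.36-fold above control in the B16 lung, where most subunit genes were below control. A link between these differences was not tested. Nfe2l2 was level, with 497, 511 and 525. Stat3 had 545, 429 and 347.5, 1.57-fold above control in the B16 lung, and Foxo4, with 177, 107 and 151, was 1.66-fold higher in the B16 than in the LLC lung.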

How the data were processed

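Total RNA of 3 lung samples, extracted by TRIzol, was turned into biotin-labelled cRNA and measured on Affymetrix arrays, per the labels' protocols. The deposited table holds a linear intensity per probe set, with negative values, so background had been subtracted. The software and summarisation were not given in the sources used here. Symbols came from GEO's platform annotation; all 40 proteasome genes were found by gene ID in RefSeq (GRCm38.p6) under the same symbol. Of 12488 probe sets, 66 controls were left out. Each gene was taken from its brightest probe set over the 3 arrays. Factors of 0.987, 1.01 and 1 for the B16, LLC and control arrays centred the log2 ratios to control at 0, by the median over probe sets brighter than the median one, and values under the 40th percentile (23.6) were set to it. Steps were tested on simulated data with 2-fold changes planted in genes with a mean signal of at least 100. The simulated spread was smaller than that between these arrays, so the test checks the code and not the precision of the differences. Python 3.11.15, pandas 2.3.3 and NumPy 2.4.6 were used.

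All proteasome genes were named; from the other gene lists, those past 1.5-fold and the best-known members, and cell type markers mostly as sums. The members and lists were chosen with earlier results of these data known. Arrays carry no read depth; their number limits the precision.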

Additional observations from a re-analysis of the deposited data

Results flagged for a closer look

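For 3 genes and 1 group the differences from the control lung had opposite signs in the tumour-bearing lungs, with at least 1.5-fold on one side for the single genes. Psmb10 was −0.20 in the B16 and 0.995 in the LLC lung on the log2 scale. Psmd4 was 0.80 and −0.14, and Psme3 was 0.74 and −0.016. The median of the 3 immunoproteasome subunits was −0.053 and 0.40. With 1 array per group the differences between the lungs were not tested.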

How the results depend on the processing

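No paired analysis was possible because each group has 1 array. Counts of genes past 1.5-fold moved most. With a floor of 100, 1 was higher and 2 lower in the B16 than in the control lung, 1 was higher in the LLC than in the control lung, and 2 were higher and 2 lower in the B16 than in the LLC lung. With the floor at the 60th percentile, 1 was higher in the LLC than in the control lung and 2 were lower in the B16 than in the LLC lung. With no floor and a pseudocount of 32, 1 was higher and 1 lower in the B16 lung and 1 lower in the LLC lung than control, and 2 were higher and 2 lower between the tumour-bearing lungs. A higher floor leaves fewer genes to count, and a pseudocount shrinks every difference between signals that are both above the floor. Where 1 signal is below the floor it can widen the difference, as for Psmd10 in the LLC lung against control (0.86 to 1.18). The setting with probe sets of plain names only was chosen after seeing the data. It leaves out Psmb7, so Psmb10 relative to Psmb7 has no value there, and Psmb5 is read from its second probe set. The median of the constitutive catalytic subunits, then Psmb5 and Psmb6 alone, was −0.19 in the B16 lung against control. Against the LLC lung it was 0.039. The Psmb8 value relative to Psmb5 in the B16 lung against control was −0.27. Over the 7 planned and 2 added alternatives, the other 73 medians moved by less than 0.1. The other 68 pair values moved by less than the robust SD of single genes in that comparison. It was 0.445, 0.361 and 0.419 for B16 against control, LLC against control and B16 against LLC. Many of the 68 could not move. An array factor cancels in a pair value, a floor leaves signals above it as they are, and a mean needs more than 1 probe set. Psmb10 relative to Psmb7 in the LLC lung against control was 0.88 under each of these settings. Among these 68, the Psmb8 value relative to Psmb5 in the B16 lung went from 0.24 to −0.014 with the mean of all probe sets, and against the LLC lung from −0.31 to −0.49 with that setting and to −0.66 with plain names. Of 20 differences of single genes past 1.5-fold, 8 stayed past it in every alternative that gave a value. They belong to Psmb10, Psmc5, Psmd4 and Psmd10. Psmb10 and Psmd4 have 1 probe set each, with a plain name and signals above 100. The higher floors, the mean of probe sets and plain names could not change these 2 genes. Those of Psmd10 are bounds set by the floor. They gave no value with the floor at the 60th percentile or at 100, as its signal in the LLC lung, 42.7, is below both. With the pseudocount 11 fell below 1.5-fold, and with the floor of 100 5 did. At the floor of 100 the differences of Psmd2, Psmd10 and Psmd12 gave no value. Psmb6 in the B16 lung fell below it under 4 alternatives and Psmb7 between the tumour-bearing lungs under 3. None of the 20 changed sign.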
